A study of Mus musculus with 18 samples.

Results

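The genes described are 9 apolipoproteins, Apoa1, Apoa2, Apoa4, Apoa5, Apob, Apoc1, Apoc3, Apoe and Apom, and Mttp, which encodes the microsomal triglyceride transfer protein. They were listed by name, and the RefSeq row with the highest mean over all libraries stood for each. They are 10 of the 23532 genes in the deposited data, and all 10 were among the 10356 genes tested. Wild-type C57BL/6J mice gave 18 libraries of liver polyA RNA, 3 each for HF+CR, HF+Ex, HF, LF+CR, LF+Ex and LF. LF and HF are read as a low-fat and a high-fat diet, CR as caloric restriction and Ex as exercise, from knowledge of such studies, because only the abbreviations are in the labels. Mice on either diet, with or without CR or Ex, were treated from 5 weeks of age, and liver was sampled at 62 weeks. The sex of the mice, and whether each library came from its own mouse, are not in the labels, so a p-value here speaks only of the spread between these libraries, which may be technical.

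Lipoproteins carry triglyceride and cholesterol through the blood in particles wrapped in apolipoproteins. In the liver, MTTP loads lipid onto the nascent APOB chain to build very low density lipoprotein (VLDL), while APOA1 and APOA2 are the main proteins of high density lipoprotein (HDL). Smaller apolipoproteins exchange between particles and decide how fast lipase acts on them and how fast receptors clear them, and APOE is the ligand that liver receptors bind on remnants.

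The deposited values are RPKM, reads divided by the transcript length and by the library total. They put genes on a common scale, while comparisons between libraries depend on that total, which is not given. Each difference is one of log2(RPKM + 1), given with its SE. The model was fitted in limma to all genes at once, and called means a Benjamini-Hochberg adjusted p under 0.05. In whole liver, fewer cells of a type and less RNA per cell cannot be told apart. Read depth is not given; steps among the low values gave an estimate of 23.2 M reads (LF 3) to 44.2 M (LF+CR 2). Of the 9 hepatocyte markers, 8 or 9 were at 1 RPKM or more in every library. Alb, the albumin gene, is listed at 0 in 14 libraries, where the estimate is taken to have failed, and at 30395 to 33218 RPKM in HF 1 and the 3 HF+Ex libraries; no lipoprotein gene described here has a 0. Of 9 small intestine enterocyte markers, Fabp2 and Lgals4 were above 1 RPKM in all libraries, Sis, Alpi, Lct, Cdx1 and Cdx2 were at 0, and Vil1 and Cdh17 reached at most 0.118 and 0.047 RPKM. Exocrine pancreas transcripts were present in LF+CR 1, HF+CR 1 and LF+Ex 1, where 12, 12 and 9 of 13 markers were at 1 RPKM or more and summed to 2318, 397 and 43.8 RPKM, against sums of 5.01 to 38.6 RPKM elsewhere. Bile duct markers reached a sum of 166 RPKM in HF+CR 3, with 147 RPKM in LF 2, and 5 of 7 at 1 RPKM or more in each, against sums of 15.5 to 74.6 RPKM elsewhere.

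The lipoprotein genes were among the most abundant transcripts of the liver. Together they made up 13.7% to 17.5% of the summed RPKM of a library, with Alb left out of the sum. By mean RPKM over the 18 libraries, with the failed zeros of Alb taken as missing, Apoe ranked 2 of all genes at 24318, Apoa2 ranked 3 at 22312, Apoc1 ranked 4 at 20142 and Apoa1 ranked 6 at 8515. The Alb values that are given lie above the Apoe mean, and with its zeros counted as values these 4 ranks would be 1, 2, 3 and 5. Apoc3 followed at rank 11 with 4283 RPKM, Apoa4 at 67 with 1045, Apoa5 at 103 with 711, Apob at 189 with 401, Apom at 445 with 166 and Mttp at 869 with 74.4. The genes differed in how much they varied. Apoa4 spanned a 12.7-fold range over the libraries, Apom 3.17-fold, and the other 8 genes 1.58-fold (Apoc1) to 2.52-fold (Apoa5).

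**Figure D1:**
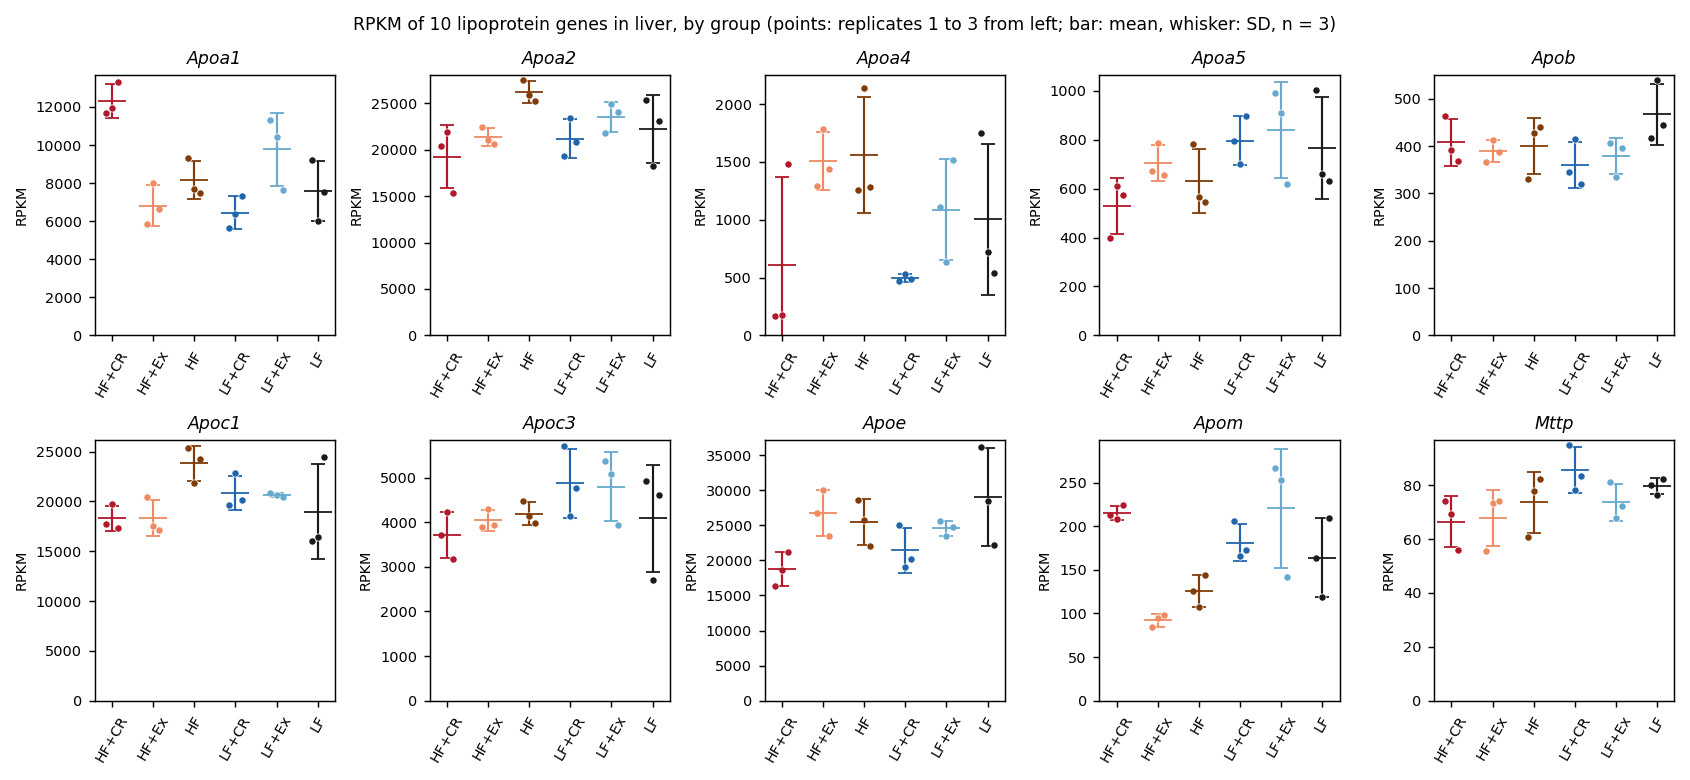
RPKM of each of the 10 lipoprotein genes (vertical axes, each starting at 0) in the 6 groups, with a point per library, a bar at the mean and a whisker of 1 SD (n = 3, cut at 0 for Apoa4 in HF+CR). Apoa1 is highest in HF+CR, Apom is lowest in HF+Ex, and Apoa4 in HF+CR splits into 2 libraries near 170 RPKM and 1 at 1486 RPKM.

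Few of these genes passed the test. In HF+CR against LF+CR, 1 of 10 was called, Apoa1, which was higher, beside 9.8% of all genes tested. In HF+Ex against LF+Ex, 1 of 10 was called, Apom, which was lower, beside 5.13% of all genes. None was called in HF+CR against HF (1.4% of all genes), LF+CR against LF (6.54%), HF against LF (0.406%), the CR by diet interaction (1.02%), or in HF+Ex against HF, LF+Ex against LF and the Ex by diet interaction (0% each) by limma. At an unadjusted p under 0.05 there were 6 of 10 in HF+CR against HF, where 14% of all genes passed, the smallest adjusted p being 0.107. The unadjusted counts were 3 of 10 in HF+CR against LF+CR (26.3% of all genes), 2 in HF+Ex against LF+Ex (22.2%), 2 in LF+CR against LF (22.4%), 1 in HF against LF (16.8%), 1 in HF+Ex against HF (3.61%) and 0 in LF+Ex against LF (9.12%). They were 2 in the CR by diet interaction (11.8%) and 3 in the Ex by diet interaction (5.06%). The interaction is the HF+CR minus HF difference less the LF+CR minus LF difference, and likewise for Ex.

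Groups whose 3 libraries all lay on one side of the other 3 were counted too. There were 5 such genes in HF+CR against HF (18.9% of all genes), with Apoa1 and Apom higher and Apoa2, Apoc1 and Apoe lower. Apoa1 and Apom were higher and Apoa5 and Mttp lower in this way in HF+CR against LF+CR (31.3% of all genes), and Apoa2, Apoc1 and Apom were lower in HF+Ex against HF (11%). Apoc1 and Apom were lower in HF+Ex against LF+Ex (30.9%), and Apoa4 and Apob in LF+CR against LF (23.3%). Apob was the 1 gene in LF+Ex against LF (12.2%), lower, and there was none in HF against LF (18.8%). The median log2 difference of the 10 genes was -0.22 in HF+CR against HF, where that of all genes was 0.01, and -0.19 in HF+CR against LF+CR, where it was -0.0035. It was -0.16 in HF+Ex against LF+Ex and 0.14 in LF+Ex against LF, with medians of all genes of 0.076 and -0.13. In the other comparisons of groups it lay between -0.09 and 0.01.

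**Figure D2:**
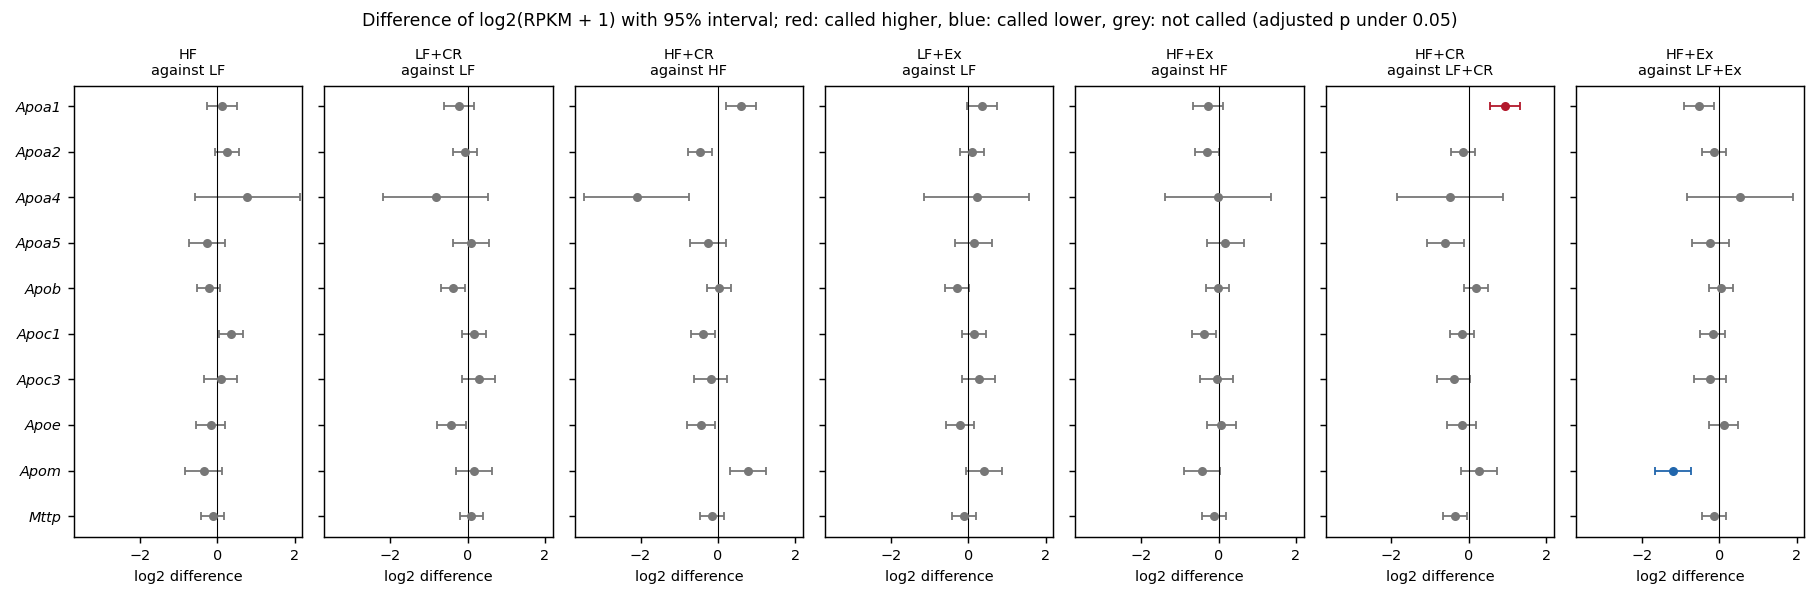
Difference of log2(RPKM + 1) with its 95% interval (horizontal axes) for each lipoprotein gene in each of 7 comparisons, from limma on 18 libraries. Apoa1 at 0.94 in HF+CR against LF+CR and Apom at -1.20 in HF+Ex against LF+Ex are the called differences, and the intervals of Apoa4 are the widest.

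Apoa1 (NM_009692) encodes the scaffold protein of HDL and the activator of the cholesterol-esterifying enzyme LCAT. Its gene lies on the plus strand at chr9:46228630-46230469 (GRCm38). The 250 bases before the RefSeq gene start, chr9:46228380-46228629 on the plus strand (GRCm38.p6), are shown because Apoa1 carried the called difference under CR. Capitals mark nuclear receptor hexamers in either orientation, the spelling AGGTCA and its variants with GGGTCA, with AGTTCA and with GGTTCA. No pair of the 4 spellings can start at the same base, and no marked hexamers overlap in the windows shown.
Apoa1: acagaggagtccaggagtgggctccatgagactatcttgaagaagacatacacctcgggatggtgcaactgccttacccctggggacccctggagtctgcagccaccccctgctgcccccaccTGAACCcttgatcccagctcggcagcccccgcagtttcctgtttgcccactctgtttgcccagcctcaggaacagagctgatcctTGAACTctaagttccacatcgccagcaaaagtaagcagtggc
AGTTCA was found on the minus strand 42 to 37 bases before the start and GGTTCA on the minus strand 127 to 122 bases before it. Any of the 4 spellings, on either strand, occurred in 38.6% of the 32851 promoter windows of this length in the RefSeq table. The TATA box letters TATAAA (12.4% of windows), the E-box CACGTG (6.02%) and the HNF1 letters GTTAAT (6.43%) were not in this one on either strand. A match of letters is a description and not a mapped site.

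Apoa1 was most abundant in HF+CR, at 11696, 11926 and 13320 RPKM, against 5638, 6371 and 7334 RPKM in LF+CR. All 3 HF+CR libraries lay above all 15 others, the next being LF+Ex 1 at 11305 RPKM. The means were 12314 ± 879 RPKM in HF+CR, against 6447 ± 851 RPKM in LF+CR (SD, n = 3 each), 1.91-fold higher. The log2 difference was 0.94 ± 0.18 (limma, adjusted p = 0.00491). It ranged from 0.85 to 1.04 over 30 alternatives, and the call was lost in 1 of them, without the 3 libraries with pancreas transcripts (0.88 ± 0.23, adjusted p = 0.0899), which leaves 2 libraries in each group. Some marker sums of other cells also stood higher in HF+CR than in LF+CR without overlap. Summed macrophage markers were 153 to 285 RPKM in HF+CR, with 7 or 8 of 8 at 1 RPKM or more, against 95.97 to 137 RPKM in LF+CR, with 8 of 8. Lymphocyte markers summed to 2.49 to 7.02 RPKM in HF+CR, with 1 or 2 of 7 at 1 RPKM or more, against 0.688 to 1.19 RPKM in LF+CR, with 0 of 7 and Cd8a at 0. Enterocyte markers summed to 112 to 141 RPKM in HF+CR and 66.9 to 101 RPKM in LF+CR, nearly all from Fabp2 and Lgals4. Those markers differed in direction, both without overlap. Fabp2 was at 106, 132 and 112 RPKM in HF+CR, against 50.7, 79.0 and 66.0 RPKM in LF+CR. Lgals4 was at 6.13, 9.28 and 13.3 RPKM in HF+CR, against 16.2, 22.1 and 16.9 RPKM in LF+CR. The stellate cell and bile duct sums overlapped. The part of these cells in the Apoa1 difference was not tested.

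Against HF, the same HF+CR libraries stood above 9302, 7682 and 7456 RPKM without overlap, but the difference of 0.60 ± 0.18 did not pass (limma, adjusted p = 0.137). On the low-fat diet the order was the other way round. LF+CR, at 6447 ± 851 RPKM, lay below LF at 7589 ± 1594 RPKM (SD, n = 3 each), with overlapping groups and a log2 difference of -0.22 ± 0.18 (limma, adjusted p = 0.503). The CR by diet interaction of 0.82 ± 0.26 did not pass either (limma, adjusted p = 0.176). Under Ex, HF+Ex had 5829, 7984 and 6643 RPKM, against 11305, 10409 and 7619 RPKM in LF+Ex. These groups overlapped through LF+Ex 3, and the log2 difference of -0.51 ± 0.18 did not pass (limma, adjusted p = 0.109); it passed in 1 of 30 alternatives, without LF+Ex 3 (-0.68 ± 0.18, adjusted p = 0.0434). It was -0.40 ± 0.20 without LF+Ex 1 (limma, adjusted p = 0.334) and -0.35 ± 0.22 under quantile normalization (0.353). The order of the Apoa1 group means was HF+CR, LF+Ex, HF, LF, HF+Ex and LF+CR, and every neighbouring pair after the first overlapped.

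Apoa2 (NM_013474) encodes the other main protein of HDL, at chr1:171221564-171226379. It had 20460, 21877 and 15387 RPKM in HF+CR, against 27505, 25939 and 25244 RPKM in HF. All HF+CR libraries were below all HF libraries, and the log2 difference of -0.46 ± 0.15 did not pass (limma, adjusted p = 0.149). HF+Ex, at 22497, 21074 and 20639 RPKM, also lay below HF without overlap (-0.29 ± 0.15, limma adjusted p = 1). HF was the highest group at 26229 ± 1158 RPKM (SD, n = 3) and separate from the next by mean, LF+Ex. It overlapped LF, where LF 1 was at 25314 RPKM, above HF 3. The lower 5 groups overlapped their neighbours in order. The RefSeq span of Apoa2 overlaps that of Tomm40l, and no label states that counting used strand, so reads in the overlap cannot be told apart.

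Apoa1 and Apoa2 thus stood on opposite sides of HF in HF+CR. The ratio of Apoa1 to Apoa2 RPKM was 0.572, 0.545 and 0.866 in HF+CR, against 0.338, 0.296 and 0.295 in HF. Each HF+CR ratio was above those of the other 15 libraries, the next being 0.519 in LF+Ex 1. Mean ratios were 0.661 ± 0.178 in HF+CR, 0.320 ± 0.060 in HF+Ex, 0.310 ± 0.024 in HF, 0.305 ± 0.042 in LF+CR, 0.418 ± 0.101 in LF+Ex and 0.340 ± 0.020 in LF (SD, n = 3 each). The ratio was formed after the values were seen, and no test was made of it.

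**Figure D3:**
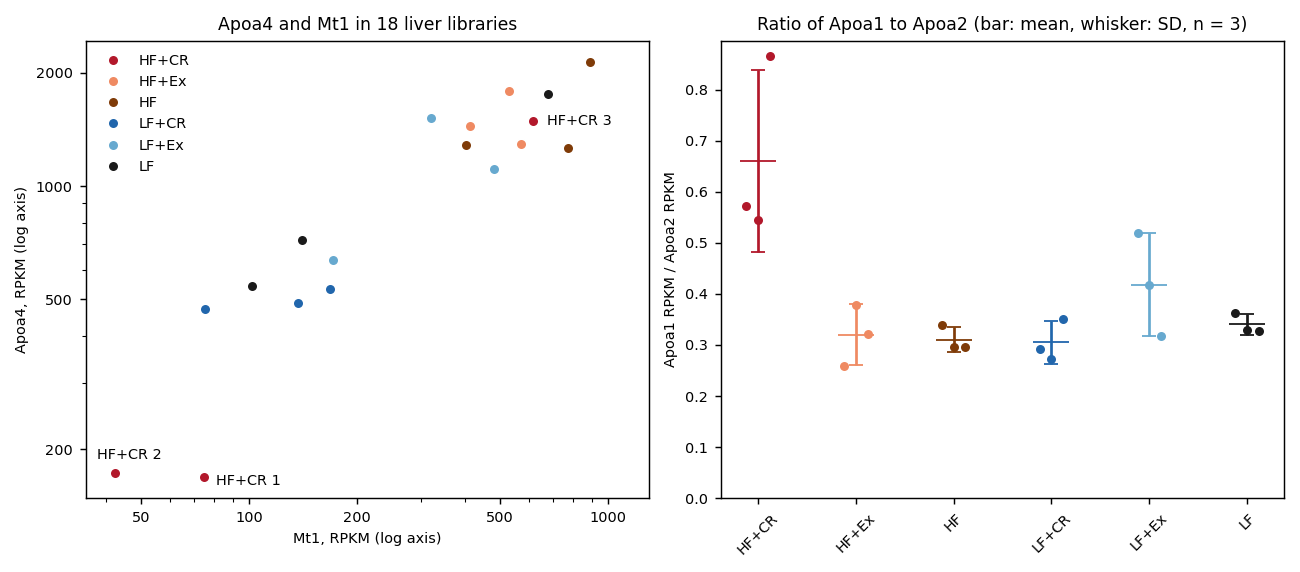
Left, Apoa4 against Mt1 RPKM in the 18 libraries (both axes logarithmic, 1 point per library, coloured by group). Right, the ratio of Apoa1 to Apoa2 RPKM per library with the group mean and SD (n = 3); HF+CR 1 and 2 lie at the low end on the left, HF+CR 3 lies at 616 RPKM of Mt1, and the HF+CR ratios on the right, 0.545 to 0.866, are the highest.

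Apom (NM_018816) encodes the HDL protein that carries sphingosine 1-phosphate. The gene is on the minus strand at chr17:35128997-35131801. The 250 bases before its start, chr17:35131802-35132051 read on the minus strand (RefSeq, GRCm38.p6), are shown because Apom carried the called difference under Ex, with hexamers in capitals as for Apoa1.
Apom: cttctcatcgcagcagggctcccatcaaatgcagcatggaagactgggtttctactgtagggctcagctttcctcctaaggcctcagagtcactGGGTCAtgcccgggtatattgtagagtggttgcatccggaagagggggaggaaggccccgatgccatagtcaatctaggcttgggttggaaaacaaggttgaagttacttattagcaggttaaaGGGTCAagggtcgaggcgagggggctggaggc
GGGTCA, which 11.6% of all windows hold, was found in forward orientation 156 to 151 and 32 to 27 bases before the start. Any of the 4 spellings searched is held by 38.6% of windows. The hexamer spellings differ between the Apom and the Apoa1 window.

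Apom was lowest in HF+Ex, at 83.9, 95.1 and 97.7 RPKM, against 266, 253 and 142 RPKM in LF+Ex. The groups did not overlap, although LF+Ex 3 lay well below the other two LF+Ex libraries. The means were 92.2 ± 7.32 RPKM in HF+Ex and 220 ± 68.4 RPKM in LF+Ex (SD, n = 3 each), so that HF+Ex was at 0.419 of the LF+Ex mean. The log2 difference was -1.20 ± 0.22 (limma, adjusted p = 0.0121). It stayed negative over 30 alternatives and was called in 27; the call was lost without LF+Ex 1 (-1.03 ± 0.24, adjusted p = 0.0667), without LF+Ex 2 (-1.07 ± 0.24, 0.0617) and without the pancreas-transcript libraries (-1.03 ± 0.25, 0.106). All 3 HF+Ex libraries carry an Alb value and no LF+Ex library does; HF 1, the other library with one, had 126 RPKM of Apom, between 107 and 144 RPKM in HF 2 and HF 3. Marker sums of other liver cells moved with this comparison, without overlap of the groups. The summed macrophage markers were 245 to 302 RPKM in HF+Ex, with 6 or 7 of 8 at 1 RPKM or more. In LF+Ex they were 132 to 180 RPKM, with 8 of 8. Of that list, Adgre1, Csf1r, Cd5l and Lyz2 were higher in HF+Ex without overlap, and Clec4f, Marco and Vsig4 overlapped. Cd163 was lower without overlap, at 0.0303, 0.919 and 0.00871 RPKM in HF+Ex, against 2.05, 1.82 and 2.05 RPKM in LF+Ex. The stellate cell markers summed to 101 to 124 RPKM in HF+Ex and 57.6 to 62.2 RPKM in LF+Ex, with 8 of 8, against 6 or 7 of 8, at 1 RPKM or more. Sums of the other lists were low in HF+Ex and lower in LF+Ex, with 33.0 to 56.7 RPKM against 19.2 to 28.5 RPKM for bile duct, 4.19 to 5.68 RPKM against 0.807 to 2.17 RPKM for lymphocytes and 2.61 to 7.13 RPKM against 0 to 2.41 RPKM for adipocytes. In these lists 1 or 2 of 7, 1 or 2 of 7 and 1 of 5 markers were at 1 RPKM or more in HF+Ex, against 1 to 3, 0 or 1 and 0 or 1 in LF+Ex. The bile duct marker Cftr and the adipocyte marker Retn were at 0 in both groups. The T cell markers Cd3e and Cd8a and the adipocyte markers Adipoq and Plin1 were at 0 in all LF+Ex libraries. In HF+Ex, Adipoq and Plin1 were above 0 only in HF+Ex 2, at 0.147 and 0.124 RPKM. The adipocyte sum in HF+Ex was nearly all Cfd, at 7.09, 6.86 and 2.61 RPKM. The bile duct sum there was nearly all Spp1, at 52.3, 53.6 and 31.6 RPKM, while Krt19, Krt7 and Epcam overlapped LF+Ex. The part of these cells in the Apom difference was not tested.

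Under CR the diets stood in the other order for Apom, with 213, 209 and 224 RPKM in HF+CR, against 205, 166 and 172 RPKM in LF+CR. The groups did not overlap, although HF+CR 2 and LF+CR 1 lay close together, and the log2 difference of 0.25 ± 0.22 did not pass (limma, adjusted p = 0.495). HF+CR also lay above HF, at 126, 107 and 144 RPKM, without overlap. That log2 difference, 0.78 ± 0.22, had the smallest adjusted p of the lipoprotein genes in HF+CR against HF (limma, adjusted p = 0.107), and it passed when LF+Ex 3, a library of neither group, was left out (0.78 ± 0.17, adjusted p = 0.0319), the 1 of 30 alternatives that called it. Without HF 2 it was 0.67 ± 0.25 (limma, adjusted p = 0.307). HF+Ex was below HF without overlap (-0.43 ± 0.22, limma adjusted p = 1). The Ex by diet interaction was -0.84 ± 0.31 (limma, adjusted p = 0.818) and the CR by diet interaction 0.61 ± 0.31 (adjusted p = 0.475). In order of mean, LF+Ex and HF+CR came first, then LF+CR, LF, HF and HF+Ex; neighbours overlapped except HF+CR and LF+CR, and HF and HF+Ex.

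Apoa4 (NM_007468) encodes an apolipoprotein of intestine and, in the mouse, liver, known for its rise in fatty liver and in fasting. It lies on the plus strand at chr9:46240844-46243458. The window before its start, chr9:46240594-46240843 (RefSeq, GRCm38.p6), is shown because Apoa4 varied most, with the hexamer in capitals.
Apoa4: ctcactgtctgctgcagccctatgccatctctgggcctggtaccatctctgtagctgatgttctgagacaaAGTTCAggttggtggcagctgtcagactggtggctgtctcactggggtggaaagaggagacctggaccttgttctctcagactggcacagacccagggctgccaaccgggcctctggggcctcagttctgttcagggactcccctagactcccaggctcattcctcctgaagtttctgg
AGTTCA, held by 11.8% of windows where any of the 4 spellings is held by 38.6%, was found 179 to 174 bases before the start. The other 3 spellings and the TATA, E-box and HNF1 letters were not found in this window.

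The HF+CR libraries disagreed on Apoa4, with 168, 173 and 1486 RPKM, against 1259, 2142 and 1287 RPKM in HF. HF+CR 1 and 2 were the lowest of all 18 libraries, while HF+CR 3 lay within HF. The means were 609 ± 760 RPKM in HF+CR and 1563 ± 501 RPKM in HF (SD, n = 3 each). The log2 difference of -2.10 ± 0.64 did not pass (limma, adjusted p = 0.14). Without HF+CR 3 it was -3.14 ± 0.41 (adjusted p = 0.00265), and against LF+CR it was -1.53 ± 0.41 (0.0263), in place of -0.50 ± 0.64 (0.661) with all libraries. The CR by diet interaction was -1.28 ± 0.91 with all libraries (limma, adjusted p = 0.648) and -2.31 ± 0.55 without HF+CR 3 (0.0445). Leaving out HF+CR 1 in its place moved these 3 values the other way, to -1.57 ± 0.67 (adjusted p = 0.401) against HF, 0.03 ± 0.67 (0.986) against LF+CR and -0.75 ± 0.90 (0.877) for the interaction, all by limma.

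HF+CR 3 stood apart from HF+CR 1 and 2 for Apoa4 far more than for the other lipoprotein genes. Its Apoa4 was 8.71 times the mean of the other two, whereas its Apoe was 1.21 times, Apoa5 1.14, Apoa1 1.13 and Apom 1.06 times, and its Apoa2 0.727 of their mean. Mt1 and Mt2, which encode zinc-binding metallothioneins, were in HF+CR 3 at 10.5 and 13.9 times the mean of HF+CR 1 and 2, and the bile duct markers Krt19 and Epcam at 6.83 and 9.48 times. Some markers of other cells were high there too. The stellate cell markers Col1a1 and Lum were at 14.5 and 8.02 times, and the macrophage marker Lyz2 at 3.82 times. The macrophage markers Clec4f, Marco, Vsig4 and Cd163 and the stellate cell marker Acta2 were lower in HF+CR 3 than in HF+CR 1 and 2. Stellate cell markers summed to 156 RPKM in HF+CR 3 and to 79.4 and 73.2 RPKM in HF+CR 1 and 2, and macrophage markers to 285, against 186 and 153 RPKM. LF 2, the other library high in bile duct markers, with sums of 148 RPKM for stellate cells and 311 RPKM for macrophages, had 721 RPKM of Apoa4, between LF 3 and LF 1. The summed bile duct markers were 28.1 to 166 RPKM in HF+CR and 42.9 to 74.6 RPKM in HF, and the part of these cells in the Apoa4 values was not tested. The summed enterocyte markers were 112 to 141 RPKM in HF+CR and 174 to 228 RPKM in HF, nearly all from Fabp2 and Lgals4.

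Elsewhere Apoa4 also varied within groups. LF+CR had 470, 533 and 488 RPKM, against 1751, 721 and 543 RPKM in LF. LF+CR was below every LF library and had the narrowest spread, and the log2 difference was -0.83 ± 0.64 (limma, adjusted p = 0.478). HF+Ex had 1294, 1786 and 1441 RPKM, against 1112, 638 and 1514 RPKM in LF+Ex (0.54 ± 0.64, limma adjusted p = 0.663). The 6 groups overlapped along the whole order of means, HF, HF+Ex, LF+Ex, LF, HF+CR and LF+CR. Over the libraries, the genes most like Apoa4 were Mt1 (Pearson r = 0.93), the mitochondrial carrier gene Slc25a47 (0.92) and Mt2 (0.90), by log2(RPKM + 1) over 18 libraries. Taken around the group means, r was 0.91, 0.91 and 0.86. Mt1 was at 74.6, 42.2 and 616 RPKM in HF+CR, against 774, 890 and 403 RPKM in HF, so that HF+CR 3 was the high library for both genes.

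Apoa5 and Apoc3 act on triglyceride clearance in opposite ways, APOA5 promoting lipoprotein lipase at the vessel wall and APOC3 inhibiting it. Apoa5 (NM_080434, chr9:46268608-46271921) had 399, 611 and 576 RPKM in HF+CR, against 793, 700 and 898 RPKM in LF+CR. All HF+CR libraries were lower, and the log2 difference of -0.61 ± 0.22 did not pass (limma, adjusted p = 0.0959). Its other differences between groups were smaller, -0.26 to 0.17, and the interactions were -0.34 ± 0.31 for CR by diet and 0.03 ± 0.31 for Ex by diet. Group means of Apoa5 ran from 840 ± 195 RPKM in LF+Ex to 529 ± 113 RPKM in HF+CR (SD, n = 3 each), with every neighbouring pair overlapping.

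Apoc3 (NM_023114, chr9:46233050-46235636) had 3723, 4223 and 3183 RPKM in HF+CR, against 5697, 4147 and 4763 RPKM in LF+CR. The groups overlapped through HF+CR 2 and LF+CR 2, and the log2 difference was -0.39 ± 0.20 (limma, adjusted p = 0.226). In every diet comparison but HF against LF the Apoc3 mean was lower on the high-fat diet; in HF against LF it was 4194 ± 251 RPKM in HF and 4083 ± 1201 RPKM in LF (SD, n = 3 each), and the log2 difference of 0.09 was -0.19 without LF 2. No neighbouring pair of groups was separate. Apoa5 and Apoc3 followed each other over the 18 libraries with r = 0.62 (0.52 around the group means); both share the chromosome 9 cluster and the scaling of each library.

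Apoc1 (NM_001110009, chr7:19689480-19692659) encodes a small apolipoprotein that hinders receptor uptake of remnants and inhibits, in humans, the cholesteryl ester transfer protein. It had 17776, 19737 and 17337 RPKM in HF+CR and 20408, 17514 and 17100 RPKM in HF+Ex, against 25314, 21807 and 24287 RPKM in HF. Both groups lay wholly below HF. The log2 differences from HF were -0.38 ± 0.15 for HF+CR (limma, adjusted p = 0.239) and -0.38 ± 0.15 for HF+Ex (adjusted p = 1), both sharing the HF libraries, and the first turned to 0.09 under quantile normalization. HF had the highest Apoc1 mean, 23802 ± 1803 RPKM, against 18972 ± 4759 RPKM in LF (SD, n = 3 each), a log2 difference of 0.35 ± 0.15 (limma, adjusted p = 0.24) that became -0.07 under quantile normalization. That method gives every library the same set of values, so genes that hold the top ranks everywhere lose most of their differences by its construction. LF was split, with LF 3 at 24461 RPKM and LF 1 and 2 at 15996 and 16459 RPKM. The interactions were -0.54 ± 0.21 for CR by diet (limma, adjusted p = 0.313) and -0.53 ± 0.21 for Ex by diet (0.818). A second RefSeq row of Apoc1 held 74.4 to 129 RPKM, 0.532% of the first on average.

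Apoe (NM_009696, chr7:19696244-19701310) had 16374, 18697 and 21171 RPKM in HF+CR, against 28559, 25742 and 22025 RPKM in HF. The groups did not overlap, with HF+CR 3 and HF 3 close to each other, and the log2 difference of -0.44 ± 0.17 did not pass (limma, adjusted p = 0.255). On the low-fat diet LF+CR had 25093, 19045 and 20152 RPKM, against 36195, 28534 and 22232 RPKM in LF. LF+CR 1 overlapped LF 3, and the log2 difference was -0.42 ± 0.17 (limma, adjusted p = 0.171). Of 30 alternatives it passed in 1, without LF 3 (-0.60 ± 0.17, adjusted p = 0.0468), and it was smallest without LF 1 among the libraries left out (-0.24 ± 0.17, 0.539) and under quantile normalization among the fits of all libraries (-0.07 ± 0.16, 0.83). The CR by diet interaction for Apoe was -0.02 ± 0.25 (limma, adjusted p = 0.987), with a 95% interval of -0.55 to 0.50. The interval leaves room for a difference between the diets as large as the CR differences themselves. Under Ex it was 26731 ± 3241 RPKM in HF+Ex, against 25442 ± 3277 RPKM in HF, and 24573 ± 1088 RPKM in LF+Ex, against 28987 ± 6993 RPKM in LF (SD, n = 3 each). Neighbours in the order LF, HF+Ex, HF, LF+Ex, LF+CR and HF+CR all overlapped.

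Apob (NM_009693, chr12:7977629-8016839) and Mttp (NM_008642, chr3:138089855-138143418), the pair that builds VLDL, varied little. Apob had 345, 415 and 319 RPKM in LF+CR and 406, 335 and 396 RPKM in LF+Ex, against 416, 540 and 444 RPKM in LF. Each treated library was below each LF library, with LF+CR 2 close to LF 1, and the log2 differences of -0.37 ± 0.14 (limma, adjusted p = 0.137) and -0.29 ± 0.14 (0.544) did not pass. On the high-fat diet Apob was 408 ± 49.4 RPKM in HF+CR and 389 ± 23.6 RPKM in HF+Ex, against 400 ± 59.6 RPKM in HF (SD, n = 3 each). The log2 differences were 0.03 (95% interval -0.27 to 0.34) and -0.03 (-0.33 to 0.28).

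Mttp had 74.1, 69.3 and 55.8 RPKM in HF+CR, against 94.9, 78.1 and 83.4 RPKM in LF+CR. Every HF+CR library was lower, and the log2 difference of -0.37 ± 0.14 did not pass (limma, adjusted p = 0.119). Its other differences between groups lay between -0.15 and 0.10, the interactions were -0.24 ± 0.20 for CR by diet and -0.0050 ± 0.20 for Ex by diet, and the sign in LF+Ex against LF, -0.11, turned to 0.05 under median-of-ratios scaling. That scaling moved the median of all genes in LF+Ex against LF to 0.0018, in place of -0.13 for the deposited values, and in the Ex by diet interaction to 0.0035, in place of 0.11. Mttp means ran from 85.5 ± 8.56 RPKM in LF+CR to 66.4 ± 9.47 RPKM in HF+CR (SD, n = 3 each), and neighbouring groups overlapped. A second Mttp row stayed between 0.385 and 1.47 RPKM.

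The range of the group means, on the log2 scale, was 2.10 for Apoa4, 1.22 for Apom and 0.94 for Apoa1, and 0.66 (Apoa5) to 0.37 (Mttp) for the others. On that scale HF+CR was the highest group for Apoa1 and Apom and the lowest for Apoa4, Apoa5, Apoe, Apoa2, Apoc3, Apoc1 and Mttp. The pooled spread within groups was 0.88 for Apoa4, larger than the SD of its group means (0.85), and likewise larger for Apoa5, Apoa2, Apoc3, Apoc1, Apob and Mttp. For Apom (0.29 within, 0.47 between), Apoa1 (0.23 and 0.35) and Apoe (0.21 and 0.22) it was smaller. The spread within groups is that of single libraries, and means of 3 libraries vary less. A larger spread within groups therefore does not show that the groups were alike.

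By the same likeness over 18 libraries, Apoa1 was followed most closely by F11, coagulation factor XI (r = 0.88), Serpina1e (0.87), one of a group of near-identical antitrypsin genes whose reads can be split between copies, and Serpinf2 (0.85), the plasmin inhibitor. F11 was at 48.9, 44.97 and 39.9 RPKM in HF+CR, against 8.43, 11.2 and 15.2 RPKM in LF+CR, so it was also highest in HF+CR. Apom was followed by Vtn, vitronectin (0.87), Serpina1b (0.87) and Rcl1, an rRNA-processing gene (0.86). Around the group means these 6 values were between 0.42 and 0.76, and those of the Apoe neighbours, Polr2l (0.92), Nucb1 (0.89) and H2aj (0.88), were 0.82 to 0.90. Apoc3 was followed by the liver enzymes Haao, Gnmt and Khk (0.84 to 0.85), Apoa2 by Hyi and Gckr (0.83 and 0.80) and Apoa5 by Ndufb7, Ndufs7 and Alas1 (0.79 to 0.82). Apob was followed by Dpp8, Zfr and Tlcd4 (0.79 to 0.83), Mttp by Ugt1a5, Pgrmc2 and Gnpat (0.79 to 0.83) and Apoc1 by Hint3, Sord and Prdx6 (0.70 to 0.74). These genes are from the top 3 of 3753 for each lipoprotein gene, and all points share the libraries and their scaling.

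Apoa1, Apoc3, Apoa4 and Apoa5 lie within 43.3 kb on chromosome 9, between Sik3 and Zpr1, and Apoc1 and Apoe lie 3584 bases apart on chromosome 7. Genes of the cluster differed in sign in HF+CR against LF+CR, with 0.94 for Apoa1, which passed, and -0.39 for Apoc3, -0.50 for Apoa4 and -0.61 for Apoa5, which did not. Apoa1 and Apoc3 had r = 0.04 over the 18 libraries and 0.57 around the group means, and Apoa1 and Apoa5 -0.09 and 0.78. The flanking gene Zpr1, a zinc finger gene that starts 1142 bases beyond the end of Apoa5, had a larger difference in both comparisons than any gene of the cluster. It was at 49.8, 57.5 and 49.5 RPKM in LF+CR, against 13.2, 17.5 and 13.1 RPKM in LF, and at 13.4, 18.7 and 22.5 RPKM in HF+CR, against 16.5, 13.5 and 10.6 RPKM in HF. The 3 LF+CR libraries were higher than all others, and Zpr1 rose in LF+CR against LF (1.78 ± 0.21, limma adjusted p = 0.000242) and was lower in HF+CR against LF+CR (-1.50 ± 0.21, 0.000471). Its CR by diet interaction passed (-1.39 ± 0.29, limma adjusted p = 0.0304). Beside it, Bud13 rose in LF+CR against LF (0.83 ± 0.19, limma adjusted p = 0.0201), and Bud13 and Sik3 were lower in HF+CR against LF+CR (-0.69 ± 0.19, 0.0334, and -0.42 ± 0.12, 0.0429). Bud13 was at a low level, with 2.14, 5.62 and 3.29 RPKM in LF+CR, against 1.53, 1.65 and 1.39 RPKM in LF. On chromosome 7, the lowest coordinate of Nectin2 lies 20.4 kb above that of Apoe, beyond Tomm40. Nectin2 fell in LF+CR against LF (-0.79 ± 0.13, limma adjusted p = 0.00321). Tomm40, directly beside Apoe, was not called in that comparison (0.17 ± 0.16). Of 13 genes beside the clusters, 2 were called higher and 1 lower in LF+CR against LF, where 6.54% of all genes were called. In HF+CR against LF+CR 3 were called lower (9.8% of all genes).

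**Figure D4:**
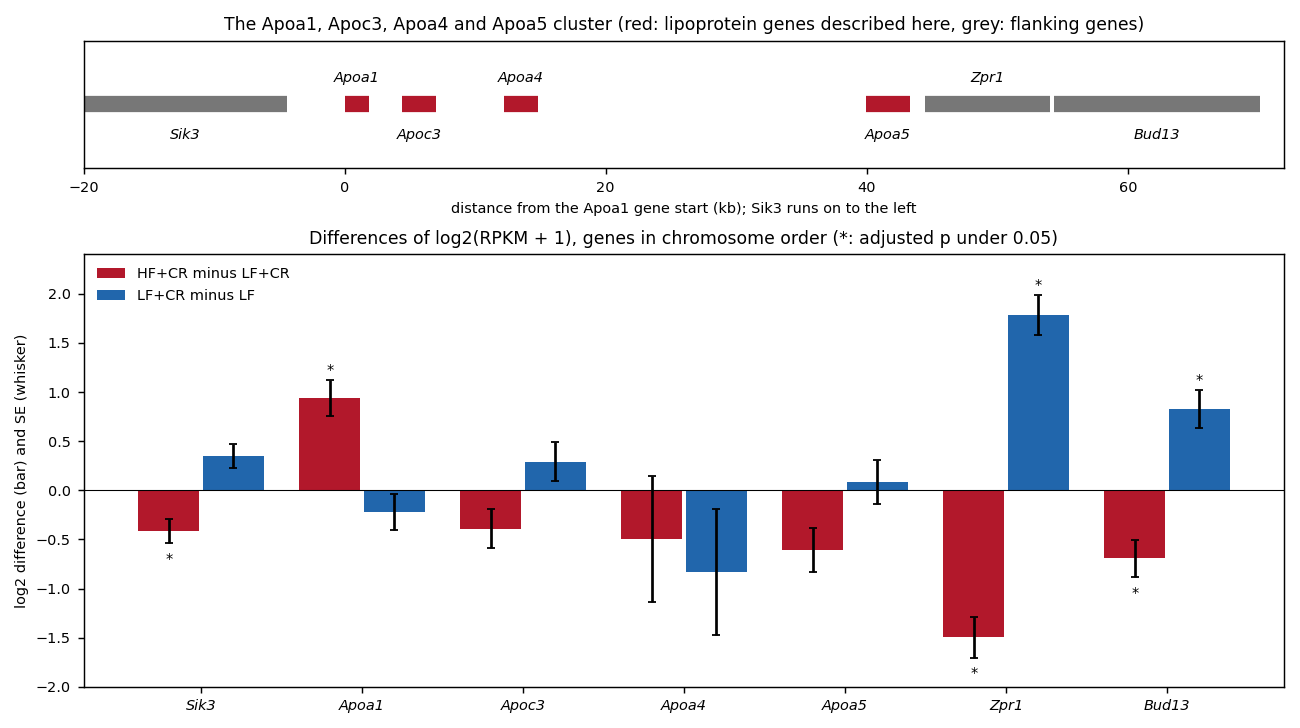
Above, gene spans of the chromosome 9 cluster by distance from the Apoa1 start (kb). Below, differences of log2(RPKM + 1) with SE for HF+CR minus LF+CR and LF+CR minus LF in chromosome order; Apoa1 at 0.94 is the called apolipoprotein, while Zpr1 is at -1.50 and 1.78.

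Of 9 other apolipoprotein genes tested, 3 fell in LF+CR against LF, where 6.54% of all genes were called. The same 3 were higher in HF+CR against LF+CR (9.8% of all genes), a comparison that shares the LF+CR libraries. They were Saa4, the constitutive serum amyloid A of HDL, Apon, and Clu, the HDL-borne clusterin (apolipoprotein J). Saa4 was at 56.7, 66.5 and 53.5 RPKM in LF+CR, against 132, 128 and 150 RPKM in LF (-1.20 ± 0.17, limma adjusted p = 0.00111). The LF+CR libraries were the lowest of the 18. In HF+CR against LF+CR it was higher by 1.12 ± 0.17 (limma, adjusted p = 0.000894). Apon and Clu had -0.69 ± 0.13 (limma, adjusted p = 0.00562) and -0.68 ± 0.13 (0.00585) in LF+CR against LF. The list's median was -0.68 in LF+CR against LF and 0.50 in HF+CR against LF+CR, where those of all genes were 0.0005 and -0.0035.

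Among 21 genes of assembly and secretion, 2 were higher and 2 lower in HF+CR against LF+CR, where 9.8% of all genes were called. In LF+CR against LF 1 was lower (6.54% of all genes), and in HF+CR against HF 1 was higher (1.4%). Tm6sf2, which acts in VLDL lipidation, was at 17.1, 16.3 and 23.5 RPKM in HF+CR, against 56.7, 39.6 and 43.9 RPKM in LF+CR. The groups were separate, with a log2 difference of -1.26 ± 0.25 (limma, adjusted p = 0.00586). Soat2, which esterifies cholesterol, was lower as well (-0.76 ± 0.19, limma adjusted p = 0.0219). Pla2g12b, needed for VLDL secretion in mice, was higher (0.47 ± 0.12, limma adjusted p = 0.0281). Apobec1, the enzyme that edits Apob mRNA, was higher in HF+CR against LF+CR (0.74 ± 0.19, limma adjusted p = 0.0221) and lower in LF+CR against LF (-0.72 ± 0.19, 0.034). The gene called in HF+CR against HF was Sort1, the sorting receptor sortilin, named after its values were seen (1.23 ± 0.27, limma adjusted p = 0.0353). Its level was low, with means of 3.59 RPKM in HF+CR and 0.942 RPKM in HF.

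Among receptor and clearance genes, Lrp1, a remnant receptor, fell in LF+CR against LF. It was at 63.2, 59.8 and 70.6 RPKM in LF+CR, against 113, 97.4 and 87.2 RPKM in LF (-0.61 ± 0.15, limma adjusted p = 0.0304). All LF+CR libraries were below all LF libraries. Vldlr, a receptor for triglyceride-rich particles, was higher in HF+Ex against LF+Ex, at a low level of 1.34 ± 0.30 RPKM in HF+Ex and 0.374 ± 0.177 RPKM in LF+Ex (SD, n = 3 each; log2 difference 0.77 ± 0.21, limma adjusted p = 0.0492).

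Of 16 lipases, transfer proteins and their regulators, 2 were lower in HF+CR against LF+CR, where 9.8% of all genes were called. In HF+Ex against LF+Ex 1 was lower (5.13% of all genes). Pltp, the phospholipid transfer protein, was at 20.8, 30.8 and 19.7 RPKM in HF+CR, against 67.8, 69.1 and 107 RPKM in LF+CR (-1.73 ± 0.30, limma adjusted p = 0.00254). Lcat was at 390, 395 and 398 RPKM in HF+CR, against 603, 506 and 481 RPKM in LF+CR (-0.42 ± 0.11, limma adjusted p = 0.0321), and was also lower in HF+Ex against LF+Ex (-0.43 ± 0.11, 0.0429). In both genes the groups were separate. Of 6 sterol efflux transporters, Abca1, which loads lipid onto APOA1, was higher in HF+CR against LF+CR, at 25.0, 20.2 and 18.1 RPKM in HF+CR, against 14.1, 14.3 and 13.4 RPKM in LF+CR (0.55 ± 0.11, limma adjusted p = 0.00496). Abca1 and Apoa1 were thus both called higher in that comparison.

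Among 27 transcriptional regulators of these genes, 1 was higher and 4 lower in HF+CR against LF+CR, where 9.8% of all genes were called. In LF+CR against LF 1 was higher and 2 lower (6.54% of all genes), and in HF+Ex against LF+Ex 1 was lower (5.13%). Creb3l3, a liver transcription factor that activates Apoa4 in mice, fell in LF+CR against LF (-0.52 ± 0.09, limma adjusted p = 0.00492) and was higher in HF+CR against LF+CR (0.32 ± 0.09, 0.0427). Esrra, an orphan nuclear receptor, Usf2, an E-box factor, and Ppargc1a, a coactivator at a low level of 1.25 RPKM in HF+CR against 2.94 RPKM in LF+CR, were lower in HF+CR against LF+CR (-0.88 ± 0.18, limma adjusted p = 0.00688, -0.48 ± 0.11, 0.0148, and -0.79 ± 0.19, 0.0174). Hnf4a, the nuclear receptor known to bind such hexamers in apolipoprotein promoters, was named after its values were seen. It was at 128, 125 and 130 RPKM in HF+CR, against 180, 191 and 178 RPKM in LF+CR (-0.52 ± 0.12, limma adjusted p = 0.0149), and was lower in HF+Ex against LF+Ex (-0.53 ± 0.12, 0.0257). Apoa1 was called higher in HF+CR against LF+CR, and Apom was called lower in HF+Ex against LF+Ex. In the other comparison of each, neither was called, with -0.51 for Apoa1 under Ex and 0.25 for Apom under CR.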

How the data were processed

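The samples were 18 libraries of polyA RNA from mouse liver. The authors deposited RPKM per RefSeq row, made with TopHat 1.4.1 and Cufflinks 1.3.0 on mm10, per the submitters' processing notes; the annotation version, the scaling total and the use of strand are not given in the sources used here. RPKM already divides by length and library size, so values depend on that total, and no counts were available for a count test. Per-sample and series-wide values were compared, and 550476 of 550476 were equal. Of 30582 rows, 30003 were named from RefSeq (GRCm38.p6), 180 from GENCODE and 399 kept their identifier; Apoc2 was not matched and is not analysed here. An exact 0 in a row that reaches 1000 RPKM was treated as a failed estimate, which touched 2 genes and none of those described.

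Genes that reached 1 RPKM in 3 or more libraries were tested as log2(RPKM + 1), which understates fold changes of low genes, with limma 3.58.1 (R 4.3.3): 1 mean per group, trended variance, two-sided, with adjusted p over all genes. The script was tested on simulated data. Figures and summaries used Python 3.11.15 with pandas 2.3.3 and matplotlib 3.10.9. Promoter sequences are RefSeq's, with entries for 8 of the 10 genes, and the motif spellings were chosen after the sequences were seen. The genes, the lists and the tests were chosen with earlier results of these data known. From each list the called genes of smallest adjusted p were named, at most 4, and for each lipoprotein gene the 3 genes of at least 10 RPKM with the highest r. A few genes this rule takes are not reported here. Alternatives were a pseudocount of 0.1, other filters and scalings, summed rows, untrended variance, fewer groups, a replicate block and leaving out libraries.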

Additional observations from a re-analysis of the deposited data

Results flagged for a closer look

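The effect of CR on Zpr1, the gene beside Apoa5, differed between the diets by a test of the difference itself: the CR by diet interaction was -1.39 ± 0.29 on the log2 scale (limma, adjusted p = 0.0304). Zpr1 was at 18.2 ± 4.54 RPKM in HF+CR, against 13.5 ± 2.97 RPKM in HF, and at 52.3 ± 4.57 RPKM in LF+CR, against 14.6 ± 2.51 RPKM in LF (SD, n = 3 each). No interaction of the 10 lipoprotein genes passed in limma; 2 of 10 for CR and 3 of 10 for Ex were at an unadjusted p under 0.05.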

How the results depend on the processing

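Of 2700 values of the 10 genes under 30 alternatives, 2672 kept their side of the threshold and their direction, apart from sign changes of uncalled differences within 1 SE. Another 16 uncalled differences changed sign by more than 1 SE, 8 differences became called and 4 lost a call. Nearly all of the 2672 were uncalled in the main fit and stayed so, which says little about the calls. The called differences kept their call in 29 of 30 alternatives for Apoa1 (HF+CR against LF+CR) and in 27 for Apom (HF+Ex against LF+Ex). Leaving out 1 library at a time, the lipoprotein genes called numbered 0 to 1 in LF+CR against LF (1 without LF 3), 0 to 1 in HF+CR against HF (1 without LF+Ex 3 or HF+CR 3), 1 to 2 in HF+CR against LF+CR (2 without HF+CR 3), 0 to 2 in HF+Ex against LF+Ex (0 without LF+Ex 1 or LF+Ex 2, where all genes called numbered 46 and 77, and 2 without LF+Ex 3) and 0 to 1 in the CR by diet interaction (1 without HF+CR 3), and 0 in the other comparisons. As settings chosen after seeing the data, leaving out the 3 libraries with pancreas transcripts gave 0 in HF+CR against LF+CR and 0 in HF+Ex against LF+Ex, where calls over all genes went down as well, to 131 and 33, against 1015 and 531 with every library, and leaving out the 2 high in bile duct markers gave 1 in HF+CR against HF and 2 in HF+CR against LF+CR. Fewer libraries enter these fits; beyond that the cause was not tested. With the replicate block, 1 lipoprotein gene was called in HF+CR against LF+CR, 1 in HF+Ex against LF+Ex and 0 in the others. The counts were the same without it. Around the group means, same-numbered libraries had r of 0.208, 0.07 and 0.206 over all genes in HF+Ex against HF. In HF against LF r was 0.091, 0.325 and 0.25, and in the other comparisons it was -0.25 to 0.189. Whether a replicate number marks a shared batch or day is not in the labels, and these values cannot decide it. With 3 libraries a group, RPKM without counts and no stated depth, differences near 0.30 on the log2 scale had intervals that reached 0 for these genes.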
